A study of Mus musculus with 24 samples.

Results

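The plasma proteins of the complement and clotting systems are made mainly by hepatocytes, and 37 of their genes were followed here in mouse liver. They were taken by name from the 55335 genes of the deposited read count table: 16 belong to complement and 21 to coagulation, anticoagulation and fibrinolysis. Each of the 37 symbols matched a gene, and all of them passed the filter on low counts that left 13281 genes for testing.

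Both systems are cascades in which an inactive protease is cleaved into an active form that cleaves the next. Complement starts from recognition by C1 or by mannose-binding lectins, passes through C3 and ends in a pore built from C5 to C9. In clotting, factor VII and the contact factors lead to factor X and then thrombin, which turns fibrinogen into fibrin. Antithrombin and protein C hold thrombin generation back, and plasmin dissolves the clot. Hepatocytes secrete most of these proteins constitutively, and several, among them the fibrinogen chains and C3, are classical acute phase proteins.

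Bulk RNA was sequenced from the livers of 24 female mice, 4 in each of 6 groups. Mice aged 3 months at the start were kept for 6 months on one of 3 diets. By composition, 70% of the control diet was carbohydrate, 20% was fat as long-chain triglycerides and 10% was protein, at 4.1 kcal/g. The ketogenic diet (KD) had no carbohydrate, with 90% as long-chain triglycerides and 10% as protein, at 6.7 kcal/g. The other diet (MCT) had the carbohydrate, protein and energy content of the control diet, with 10% medium-chain and 10% long-chain triglyceride as its fat. Wild-type mice (WT) were of the strain B6129SF2/J. The others were 3xTg-AD mice (3xTg), a model of Alzheimer's disease that carries mutant human APP and tau transgenes under a neuron-directed promoter. The labels do not call the WT mice littermates, so differences between the lines in genetic background and in the transgenes cannot be told apart. Each group therefore has 4 livers, named below by group and replicate number.

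Reads assigned to genes numbered 12009432 to 20108831 per library. Levels are given as CPM, the read count of a gene relative to the library's total, after TMM scaling, a correction that sets most genes equal between libraries. The 8 hepatocyte markers examined, such as Alb and Ttr, were detected in every group. Exocrine pancreas transcripts exceeded 100 CPM in 6 libraries (WT KD replicates 1, 2 and 4, WT MCT replicate 3 and 3xTg MCT replicates 3 and 4), and did so in no control-diet or 3xTg KD library. The 3xTg KD livers also differed as libraries. Their TMM factors averaged 1.24 ± 0.06 (SD, n = 4) against 1.01 ± 0.07 in 3xTg controls, and their mitochondrially encoded reads 6.58% ± 0.58 against 9.50% ± 3.26. Exact two-sided permutation tests gave p = 0.0286 for the TMM factors, the smallest value 4 livers against 4 allow, and p = 0.0857 for the mitochondrial share; adjusted over 18 such tests these were 0.0857 and 0.220.

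The regulatory sequence of the gene with the smallest adjusted p value, F10, is shown with those of Fga and C3, which were picked after motif matches were seen in them. They are taken from the 250 bases before the RefSeq start site on GRCm38.p6, on the gene's own strand, with matches in capitals. The F10 window is chr8:13037058-13037307 (plus strand), that of Fga chr3:83025903-83026075 (plus strand; only the 173 bases farthest from the RefSeq start, since GENCODE places the rest in an exon) and that of C3 chr17:57228137-57228386 (minus strand).
F10: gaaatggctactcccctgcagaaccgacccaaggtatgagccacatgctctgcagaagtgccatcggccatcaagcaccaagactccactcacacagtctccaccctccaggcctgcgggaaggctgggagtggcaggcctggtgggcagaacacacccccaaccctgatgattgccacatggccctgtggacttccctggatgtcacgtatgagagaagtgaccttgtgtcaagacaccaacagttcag
Fga: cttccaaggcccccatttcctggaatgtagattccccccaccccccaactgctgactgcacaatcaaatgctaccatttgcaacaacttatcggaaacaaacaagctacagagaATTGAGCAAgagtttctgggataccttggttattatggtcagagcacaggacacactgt
C3: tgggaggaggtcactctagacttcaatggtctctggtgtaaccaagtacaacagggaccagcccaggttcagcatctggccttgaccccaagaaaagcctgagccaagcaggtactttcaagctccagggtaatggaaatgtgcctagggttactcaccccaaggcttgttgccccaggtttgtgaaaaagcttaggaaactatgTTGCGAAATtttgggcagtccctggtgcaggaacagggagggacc
The capitals mark the C/EBP word TTGCNNAAT on either strand, beginning 136 bases before the Fga start and 45 bases before that of C3. In the full 250 bases before the start, this word occurred in 4 of the 29 genes with a promoter entry (C3, C9, Fga and F9; 13.8%) and in 2.45% of all 27025 genes with one. The HNF1 word GTTAATNAT also occurred in 4 of the 29 (Hc, C4bp, Fga and F13b), against 0.866% of all genes. Neither the HNF4 word CAAAGTCCA (0.451% of all genes) nor the FXR word GGTCANTGA (0.840%) was found in any of the 29, F10 included. All 4 words were searched on both strands, and each match is a description of these letters. Kng1 and Plg had no entry. C/EBP, HNF1, HNF4 and FXR are transcription factors of the hepatocyte.

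Per kilobase of exon and averaged over all 24 livers, C3 was the highest of the 37 genes at 1980 CPM per kb, the 27th of all tested genes. Fgg followed at 1624 (29th), Fga at 1394 (32nd) and Fgb at 1115 (38th), and then Plg at 828 and Kng1 at 748. In all, 8 of the 37 were among the 100 highest genes of the liver. The lowest was C2 with 3.12 CPM per kb, with Cfb next at 11.6. Both values are uncertain, since 42.8% of the exon bases of C2 and 79.5% of those of Cfb also belong to the annotated gene Gm20547 on the same strand, which was listed at 0 CPM; reads falling in shared exons may not have been counted. The same holds for 43.2% of Klkb1, shared with Gm45753. C4b, C1ra and Kng1 have near-identical paralogs (C4a, C1rb and Kng2), so their reads may be split. Masp2, Serpinc1 and Plg share 54.9%, 34.4% and 11.3% of their exon bases with genes on the opposite strand (Tardbp, Zbtb37 and Slc22a3), whose reads can be told apart only by strand. The deposited table is named as stranded, but the setting used is not given in the sources here. Together the 37 genes took 3.20% to 5.05% of gene counts per library.

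Livers of a group differed least in Serpinc1, with a median coefficient of variation of 9.70% over the 6 groups, followed by Masp2 (11.0%) and F2 (11.1%). C8a (39.6%), C8b (35.0%) and C9 (34.3%), of the membrane pore, varied most, while Hc, the gene of the pore protein C5, was at 16.6%. Variation was partly shared between genes of a liver. In WT control replicates 3 and 4, 34 of the 37 genes lay below the WT control mean, against 4 and 6 in replicates 1 and 2. In 3xTg control replicate 4, 34 of 37 lay below the 3xTg control mean. TMM factors in these 3 livers were 1.11, 1.12 and 1.11, above those of the other control-diet livers (0.895 to 0.992).

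**Figure D1:**
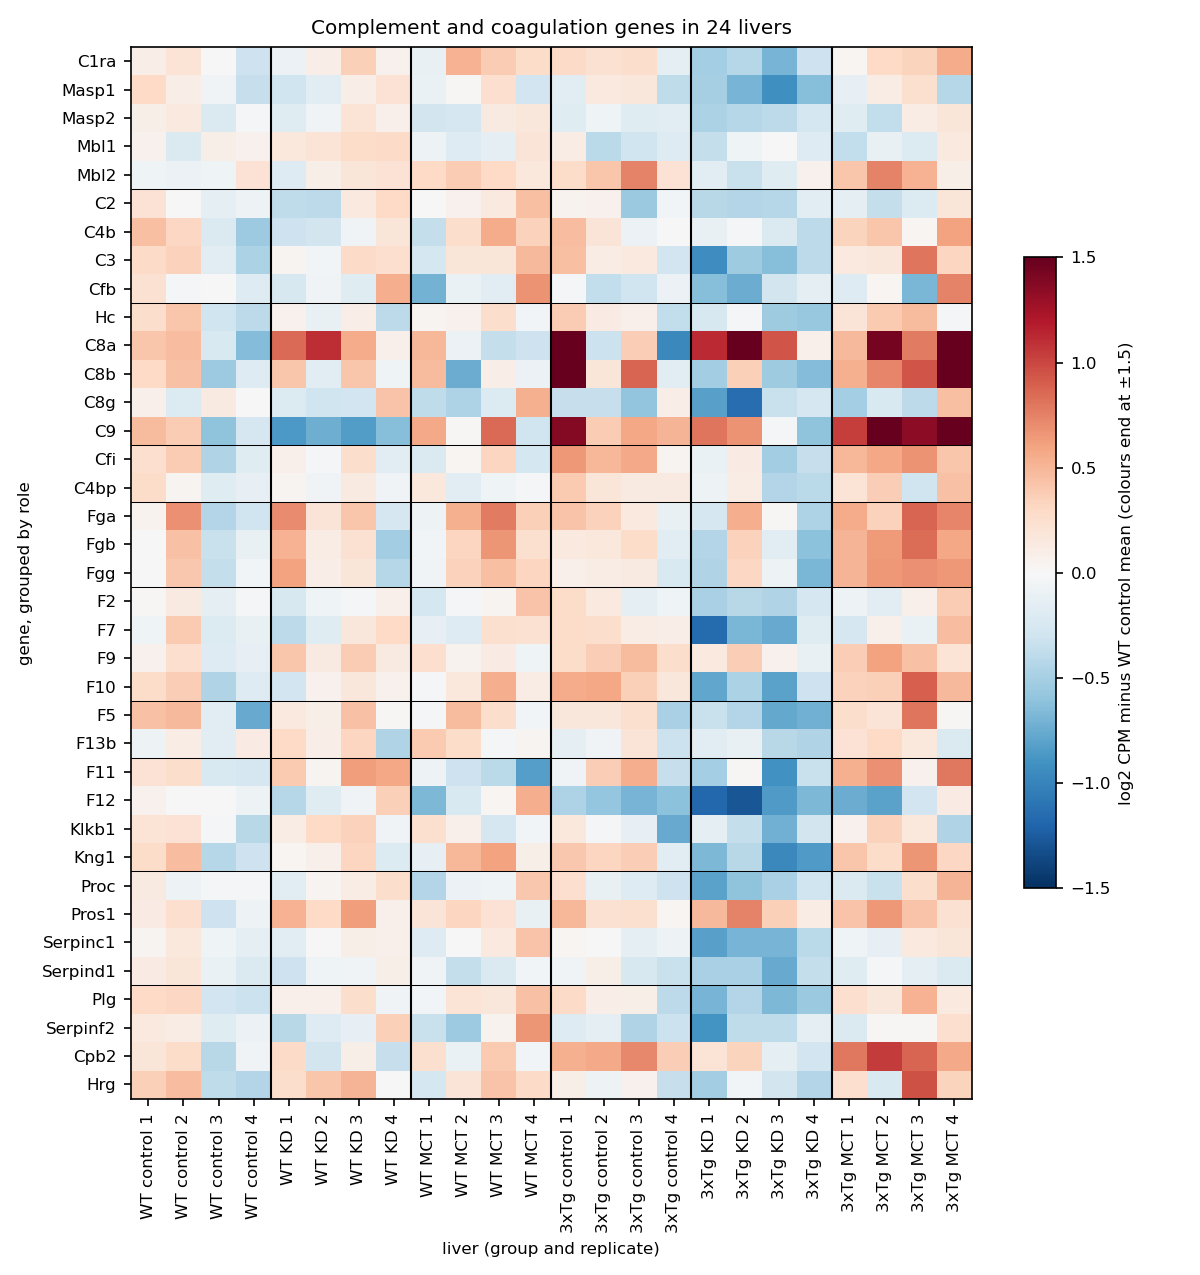
Level of each gene (rows, grouped by role) in each liver (columns, 4 per group), as log2 CPM minus the WT control mean; red is higher, blue lower, and colours end at ±1.5. The 3xTg KD columns are mostly blue, with 25 to 34 of 37 genes below the WT control mean, while C8a, C8b and C9 vary widely within groups.

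KD against the control diet in 3xTg livers showed the genes of both cascades lower together. Of the 37, 34 had a lower mean on KD, with a median log2 fold change of -0.40 against 0.01 for all tested genes. 9 passed the test (edgeR quasi-likelihood, Benjamini-Hochberg adjusted p below 0.05 over all 13281 genes), all of them lower, where 5.39% of all genes passed, 2.54% as lower and 2.85% as higher. DESeq2 called 12 of the 37 and 7.37% of all genes. The 9 that passed with edgeR were F10, F7, Kng1, Serpinc1 and Plg of the coagulation side and C1ra, Masp1, Mbl2 and Cfi of complement. When libraries were scaled by total count alone, the median of all genes moved to 0.31 and that of the 37 to -0.10. The gap of -0.41 between these medians is no test of the scaling, which moves all genes of a library alike. By total count, 2 genes (F10 and Kng1) were called lower and Pros1 higher. Over all genes, total-count scaling gave 1651 calls higher and 111 lower, against 378 and 338 with TMM. The direction of a single gene is thus relative to the scaling, while F10 and Kng1 passed as lower under either. In bulk tissue, fewer hepatocytes and less RNA per hepatocyte cannot be told apart.

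Among the vitamin K-dependent clotting zymogens, F10 showed the smallest adjusted p. This gene (chr8:13037308-13056676) encodes factor X, the protease that converts prothrombin to thrombin. It stood at 816, 836, 716 and 627 CPM in 3xTg control livers and at 324, 399, 318 and 449 on KD. All KD livers were below all controls. The log2 fold change was -1.01 ± 0.19 (SE; adjusted p = 0.00279), and the call held with any 1 of the 8 livers left out. F7, which encodes the factor VII of the tissue factor pathway, lies 1499 bp upstream of F10. It read 97.9, 97.2, 87.4 and 86.5 CPM in controls and 36.3, 50.2, 47.9 and 71.5 on KD, again without overlap (-0.84 ± 0.19, adjusted p = 0.0134). F2, the prothrombin gene, averaged 1671 ± 218 CPM in controls and 1210 ± 93.2 on KD (SD, n = 4), with no overlap, but did not pass (-0.46 ± 0.15, adjusted p = 0.0842). F9, for factor IX, did not pass either (-0.22 ± 0.13, adjusted p = 0.387).

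Kng1, which encodes the kininogen that carries bradykinin and anchors the contact factors, was the second clearest. Its 3xTg control livers read 2993, 2817, 2913 and 2026 CPM and the KD livers 1421, 1689, 1157 and 1256. The lowest control was above the highest KD liver, and the log2 fold change was -0.96 ± 0.21 (adjusted p = 0.00934), a call that held without any 1 liver. The other contact genes did not pass. F11 was at -0.57 ± 0.22, F12 at -0.39 ± 0.22 and Klkb1, for prekallikrein, at -0.21 ± 0.19.

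Serpinc1, the antithrombin gene, read 2444, 2383, 2159 and 2265 CPM in 3xTg controls and 1357, 1475, 1475 and 1798 on KD. The groups did not overlap (-0.60 ± 0.14, adjusted p = 0.0178). Plg, for plasminogen, went from 3648, 3212, 3184 and 2282 to 1851, 2208, 1875 and 2034 CPM (-0.63 ± 0.18, adjusted p = 0.0407), where control replicate 4 was close to the highest KD liver. Of the other anticoagulant genes, Serpind1 (heparin cofactor) was at -0.39 ± 0.13 and Proc (protein C) at -0.46 ± 0.18, neither past the threshold. Pros1, for the protein C cofactor protein S, was 1 of only 3 genes with a higher mean on KD (0.19 ± 0.16, not called). The other 2 were C8a and Mbl1. Fibrinogen did not pass: Fga, Fgb and Fgg were at -0.21, -0.29 and -0.20, and the KD livers ranged from 2473 to 4976 CPM for Fga, spanning the controls.

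On the complement side, 3 of the 5 initiation genes fell. C1ra, whose product is the C1r protease of the classical pathway, read 155, 149, 153 and 115 CPM in 3xTg controls and 89.3, 94.6, 78.9 and 103 on KD (-0.64 ± 0.15, adjusted p = 0.0140). Masp1, a protease of the lectin pathway, read 173, 213, 216 and 148 CPM against 136, 119, 102 and 124 (-0.64 ± 0.17, adjusted p = 0.0296). Mbl2, a mannose-binding lectin, read 604, 664, 834 and 581 CPM against 443, 397, 440 and 524 (-0.57 ± 0.15, adjusted p = 0.0230). In these 3 genes no KD liver reached the lowest control. The second lectin gene, Mbl1, was at 0.04 ± 0.13 and the protease gene Masp2 at -0.24 ± 0.13. Cfi, for the inhibitor that cleaves C3b and C4b, read 1217, 1093, 1142 and 792 CPM against 722, 842, 536 and 609, with 1 control liver inside the KD range (-0.65 ± 0.19, adjusted p = 0.0451). C3 itself read 13207, 10416, 10723 and 7921 CPM in controls and 5093, 6713, 6201 and 7380 on KD, without overlap, and missed the threshold (-0.74 ± 0.23, adjusted p = 0.0668); it passed with DESeq2 (adjusted p = 0.00821). C8b had the lowest value of all 37, -1.03 ± 0.37, with groups that overlapped (adjusted p = 0.119).

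Across the 37 genes, 14 had no overlap between 3xTg control and KD livers, all lower on KD, where 6.15% of all tested genes were lower and 6.13% higher in this way. Per liver, the median of the 37 genes relative to the 3xTg control mean was -0.45, -0.28, -0.53 and -0.46 in KD replicates 1 to 4, with 33, 29, 34 and 34 genes below that mean. The count of 9 called genes was 5 without 3xTg control replicate 2 or 3 or KD replicate 1 or 2, 2 without KD replicate 3, and 7 to 9 without any other single liver. C1ra and F7 lost their call without KD replicate 3 alone. Plg kept its call in 1 of the 8 fits, Cfi in 2, Mbl2 in 3, Masp1 in 4 and Serpinc1 in 5.

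**Figure D2:**
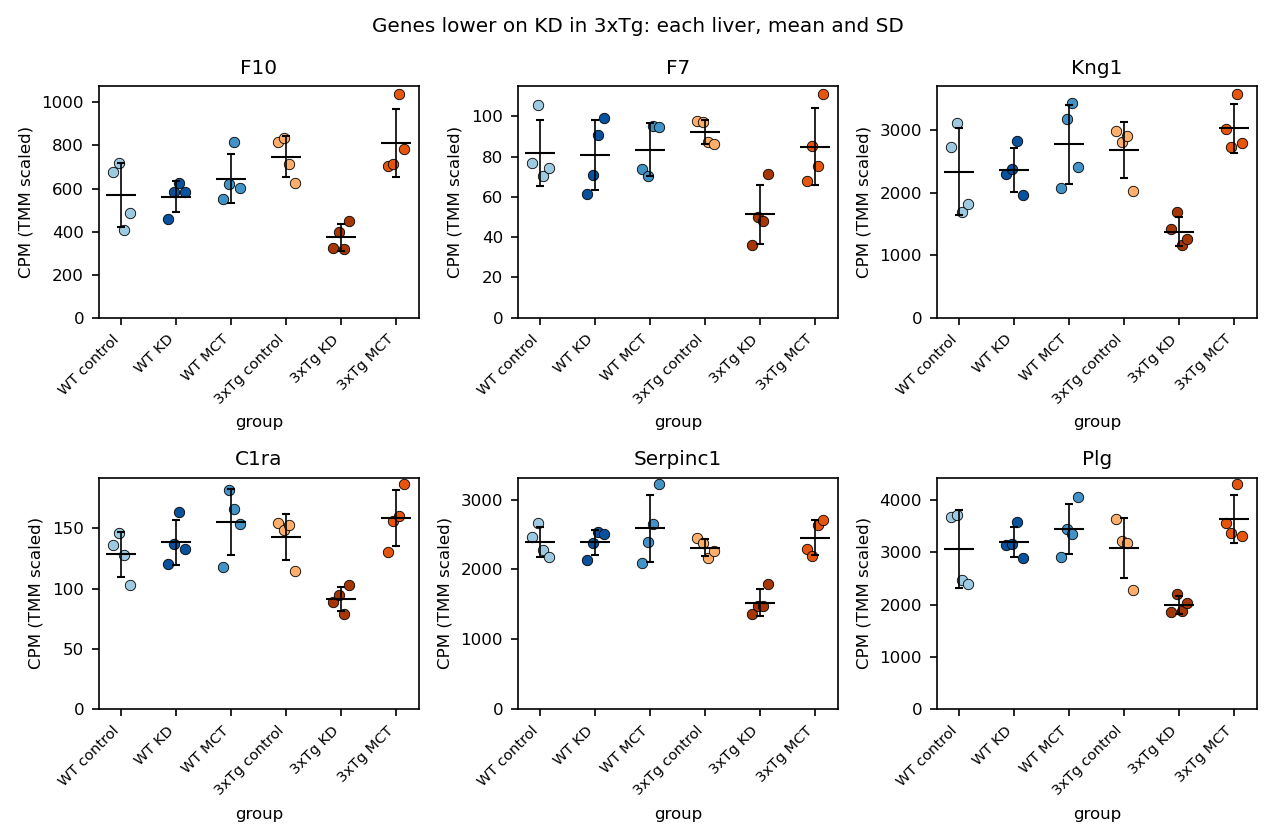
CPM (TMM scaled, from 0) of 6 genes in every liver of the 6 groups; points are livers, the horizontal mark is the mean and the bar the SD (n = 4). In F10, Kng1 and Serpinc1 the 3xTg KD livers sit below every 3xTg control liver, with F10 between 318 and 449 CPM against 627 to 836.

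Values of several other cell types differed along with these results. Marker sums are relative to total counts without TMM, the scale on which the median of all genes was 0.31 higher on KD. The summed level of the neutrophil markers was 15.2 CPM in 3xTg KD replicate 1, 94.4 in replicate 2, 104 in replicate 3 and 7.32 in replicate 4, against 5.36 to 7.21 in 3xTg controls; 11 of 11 were detected, and in controls Elane was at 0. Kupffer cell and macrophage markers, all 11 detected, summed to 994 to 1497 CPM on KD and 635 to 929 in controls. Stellate cell markers summed to 714 to 775 CPM against 502 to 666, cholangiocyte markers to 39.5 to 82.6 against 26.2 to 34.3, platelet markers to 3.54 to 6.06 against 1.81 to 3.32 and endothelial markers to 608 to 768 against 511 to 643. All of these were detected, and among them only the endothelial sums overlapped. B and plasma cell markers summed to 26.1 to 92.4 CPM on KD against 42.9 to 108 in controls. Erythroid markers summed to 229 to 600 CPM against 256 to 944, and both of these sums overlapped. With TMM, the median log2 fold changes were 2.93 for neutrophil markers (3 of 4 tested called higher), 0.30 for macrophage, 0.07 for stellate (1 of 10 called, lower), -0.02 for cholangiocyte, 0.22 for platelet and -0.01 for endothelial markers, with 0 called in the last 3 and in macrophage markers. B and plasma cell markers were at -0.76 and erythroid markers at -0.63, with 0 called in either. The hepatocyte markers summed to 92804 to 117739 CPM on KD and 120219 to 171018 in controls, and 0 of 8 were called (median -0.46 with TMM). Without KD replicates 2 and 3, those richest in neutrophil transcripts, the median of the 37 genes was -0.47 and 0 were called, F10 being at -0.96 (adjusted p = 0.0790). With the mitochondrial share as a covariate, the median was -0.43 and 5 genes were called. The part of cell composition in the differences was not tested.

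In WT livers KD showed no such shift. The median log2 fold change of the 37 was 0.05 (all genes, 0.00), with 14 below 0, and 0 were called where 0.648% of all genes were, 0.361% as higher and 0.286% as lower. By unadjusted p below 0.05 there were 2 of the 37, and 1630 of all 13281 genes. DESeq2 called 0 of the 37 (2.04% of all genes). Scaled by total count alone, the median was -0.08 with 28 below 0, and that of all genes -0.15, so the sign of this small shift depends on the scaling. In 2 genes the groups did not overlap, Mbl1 being higher and C9 lower, where 3.55% of all genes were higher and 3.7% lower in this way. F10 read 676, 718, 408 and 487 CPM in WT controls and 457, 583, 626 and 582 on KD, fully overlapping (-0.03 ± 0.18; 95% interval -0.38 to 0.33). Serpinc1 was at -0.01 ± 0.14 (-0.29 to 0.28) and Kng1 at 0.02 ± 0.21 (-0.39 to 0.43). The clearest WT value belonged to C9, the last component of the pore. It read 140, 132, 66.5 and 84.5 CPM in WT controls and 55.3, 60.5, 56.4 and 65.0 on KD, just below the lowest control (-0.83 ± 0.30, adjusted p = 0.212). Pancreas transcripts were high in 3 of the 4 WT KD libraries, and without these the median was 0.19, with 1 KD liver remaining.

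**Figure D3:**
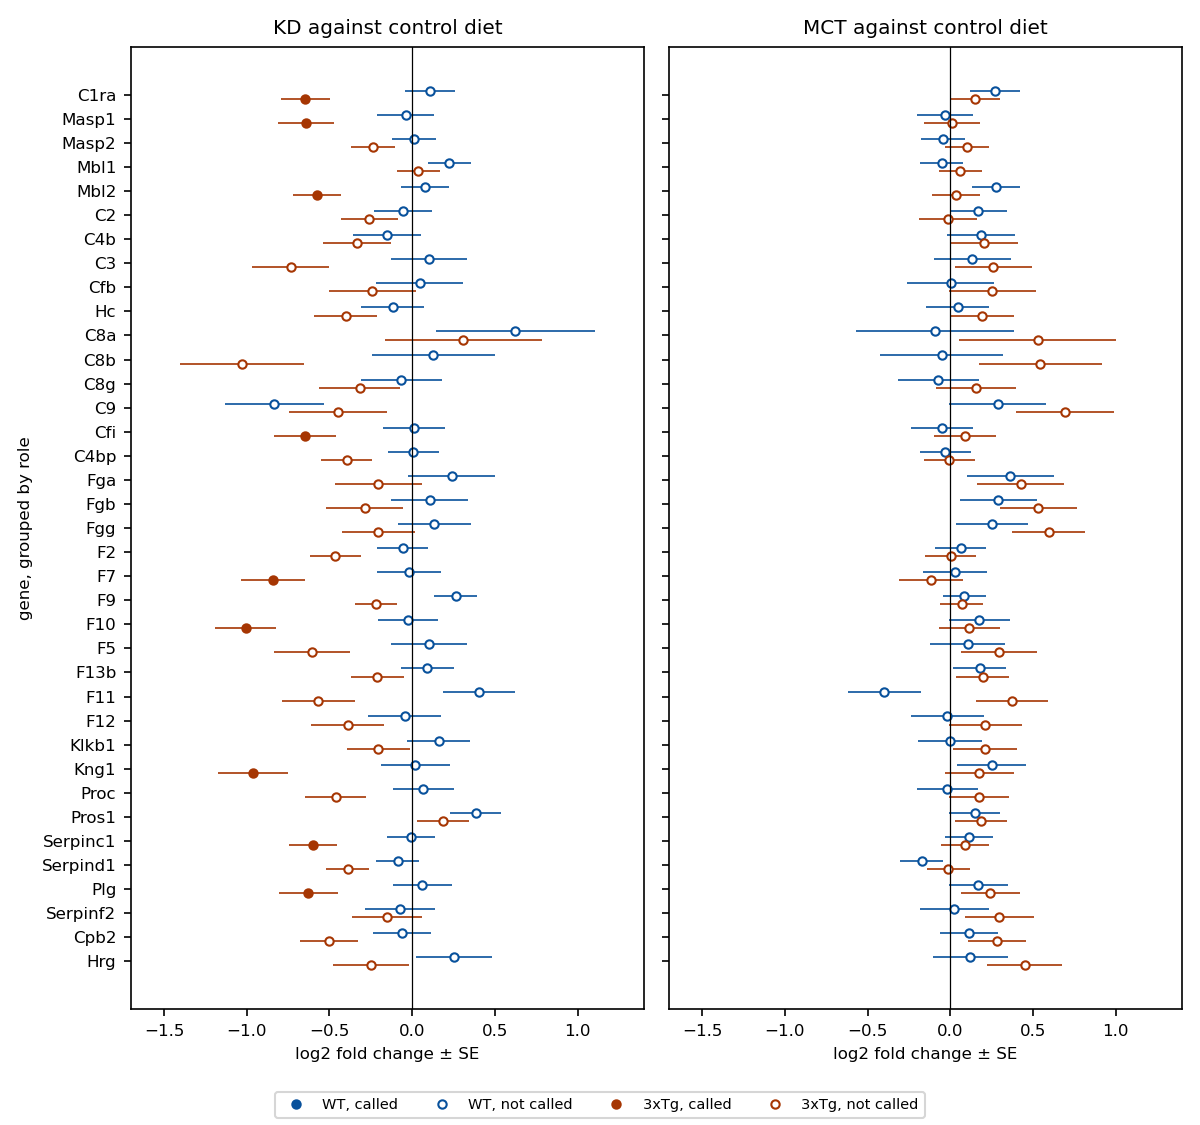
Log2 fold change ± SE of each gene on KD (left) and MCT (right) against the control diet, in WT (blue) and 3xTg (brown); filled points passed the test (adjusted p below 0.05, edgeR). The 9 filled points are all 3xTg on KD and all below 0, from -1.01 (F10) to -0.57 (Mbl2).

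The difference between the KD responses of the lines was tested directly. No gene of the 37 passed (0.00753% of all genes did), although 36 of 37 had a lower value in 3xTg, with a median difference of -0.41 against 0.01 for all genes; scaled by total count alone, the medians were 0.02 and 0.45, and over all genes 973 were called higher and 12 lower, against 1 and 0 with TMM. F10 had the smallest adjusted p, 0.109, with a difference of -0.98 ± 0.26. Kng1 was at -0.98 ± 0.30 and C1ra at -0.75 ± 0.21, with adjusted p of 0.134 and 0.116. By unadjusted p below 0.05 there were 14 of the 37, and 1939 of all 13281 genes. DESeq2 called 4, namely F10 (adjusted p = 0.0241), Kng1 and C1ra (both 0.0392) and Serpinc1 (0.0445), where it called 1.91% of all genes. A KD response that differs between the lines was therefore called by DESeq2 and not by edgeR for these 4.

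KD against MCT in 3xTg called the most genes, 18 of 37 and all lower on KD, where 8.02% of all genes passed, 4.43% as lower and 3.59% as higher. DESeq2 called 22 (10.4% of all genes). In 20 genes all KD livers were below all MCT livers and in 0 above, against 6.46% and 6.42% of all genes. The median was -0.63 (all genes, -0.01) and 36 of 37 were below 0; scaled by total count alone the medians were -0.19 and 0.43, 6 genes were called lower and Pros1 higher, and over all genes 4193 were higher and 191 lower, against 477 and 588 with TMM. The 18 included all 9 that fell against the control diet. These comparisons share the 3xTg KD livers, so their calls are not independent. F10 read 706, 716, 1040 and 782 CPM on MCT, every liver above the KD livers given above (-1.12 ± 0.19, adjusted p = 0.00121), and Kng1 3024, 2736, 3590 and 2794 (-1.14 ± 0.21, adjusted p = 0.00258). C3 read 10703, 10906, 16854 and 12130 CPM on MCT, against at most 7380 on KD (-0.99 ± 0.23, adjusted p = 0.0121). Serpinc1 read 2289, 2192, 2642 and 2707 CPM on MCT (-0.69 ± 0.15), Plg 3565, 3370, 4310 and 3322 (-0.87 ± 0.18) and C1ra 130, 157, 160 and 187 (-0.79 ± 0.15), each above all KD livers. Besides C3, the genes called here and not against the control diet were F5, F11, Proc, Cpb2, Fgb, Fgg, C8b and C9.

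F5, for the cofactor of factor Xa, read 1171, 1114, 1695 and 989 CPM on MCT and 775, 722, 572 and 592 on KD (-0.90 ± 0.23, adjusted p = 0.0192). Cpb2, for the carboxypeptidase that slows fibrinolysis, read 571, 685, 607 and 491 CPM against 380, 418, 300 and 272 (-0.78 ± 0.18, adjusted p = 0.00956). Neither gene overlapped between the diets. Proc read 263, 244, 366 and 435 CPM against 175, 201, 218 and 248, with 1 liver of each diet overlapping (-0.63 ± 0.18, adjusted p = 0.0352). Fgb read 5242, 5759, 6604 and 5510 CPM on MCT and 2719, 4688, 3284 and 2421 on KD (-0.82 ± 0.23, adjusted p = 0.0327), and Fgg 4264, 4725, 4830 and 4690 against 2190, 3733, 2845 and 1870 (-0.80 ± 0.22, adjusted p = 0.0285). For both chains the MCT livers were above all KD livers and also above all 3xTg controls. The pore genes C8b and C9 also passed. C8b read 75.2, 86.8, 99.9 and 249 CPM on MCT and 36.3, 66.9, 35.9 and 33.1 on KD (-1.57 ± 0.38, adjusted p = 0.0139), and C9 read 206, 342, 256 and 309 CPM against 176, 161, 99.9 and 66.4 (-1.14 ± 0.30, adjusted p = 0.0207), both without overlap. Fga, the chain not called, overlapped and did not pass (-0.63 ± 0.26, adjusted p = 0.144).

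In WT, KD against MCT called 0 of the 37 (all genes, 0.181%, of which 0.0904% higher and 0.0904% lower). At unadjusted p below 0.05 there were 3 of the 37, and 962 of all 13281 genes. The median was -0.03, which was 0.11 without the libraries holding pancreas transcripts. Groups did not overlap in C9, lower on KD, and F11, higher on KD, where 1.7% and 1.94% of all genes did so in that direction. DESeq2 called 1 (0.693% of all genes), C9 at -1.12 ± 0.30 (adjusted p = 0.0337). C9 read 149, 102, 181 and 82.1 CPM in WT MCT livers, all above the WT KD livers. Leaving out the libraries with pancreas transcripts, which takes away 2 of the 4 3xTg MCT livers, lowered the 3xTg count from 18 to 4, with the median at -0.53. Mitochondrially encoded reads were 6.58% ± 0.58 in 3xTg KD and 13.8% ± 3.78 in 3xTg MCT libraries (SD, n = 4; exact two-sided permutation p = 0.0286, the smallest possible, adjusted 0.0857), without overlap. With that share as a covariate, 6 genes were called, 5 of them among the 18, and the median was -0.53. The count was 8 when only the 2 compared groups were fitted, 8 without 3xTg KD replicate 3, and 13 to 19 without any other single liver. F10, Kng1, C1ra, Serpinc1, Plg, Cpb2, C3 and Mbl2 kept their call without any 1 liver.

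Within the KD diet, 3xTg livers were lower than WT livers in 13 of the 37 genes and higher in 1, where 8.49% of all genes passed, 4.22% as lower and 4.27% as higher. DESeq2 called 16 (10.6% of all genes). The median was -0.40 (all genes, 0.00), and scaled by total count alone it was 0.02 against 0.43 for all genes, with 0 genes called lower and 3 higher (C9, Cpb2 and Pros1). Over all genes that scaling called 4443 higher and 203 lower, against 567 and 561 with TMM. Serpinc1 had the smallest adjusted p: WT KD livers read 2136, 2373, 2530 and 2513 CPM, all above the 3xTg KD livers (-0.65 ± 0.15, adjusted p = 0.00836). F12, for the factor XII that starts the contact system, read 238, 284, 311 and 412 CPM in WT and 142, 132, 178 and 201 in 3xTg (-0.93 ± 0.22, adjusted p = 0.0120). C9 went the other way, at 176, 161, 99.9 and 66.4 CPM in 3xTg KD livers against 55.3 to 65.0 in WT (1.09 ± 0.30, adjusted p = 0.0256). C9 was thus lower on KD than on MCT in 3xTg, and higher in 3xTg than in WT on KD.

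The other genes lower in 3xTg on KD were C1ra, Masp1, C3, F7, F10, F5, F11, Kng1, Proc, Serpind1 and Plg, from -0.43 (Serpind1) to -0.82 (F11). Serpind1 read 490, 581, 586 and 644 CPM in WT and 434, 435, 360 and 474 in 3xTg. Of the 9 genes that fell on KD against control in 3xTg, 7 were among these 14 (C1ra, Masp1, F7, F10, Kng1, Serpinc1 and Plg), which is 7 of 9 of the one list and 7 of 14 of the other; both comparisons use the same 3xTg KD livers. Groups did not overlap in 17 genes lower in 3xTg and 1 higher, against 6.89% and 6.79% of all genes. The count of 14 was 2 without WT KD replicate 3, 3 without 3xTg KD replicate 3, 5 to 8 without 3xTg KD replicate 1 or 2 or WT KD replicate 2 or 4, and 12 or 13 without any other liver. It was 0 without the 3 WT KD libraries with pancreas transcripts, which leaves 1 WT KD liver; the median was then -0.47. The mitochondrial share was 13.7% ± 3.33 in WT KD libraries, against 6.58% ± 0.58 in 3xTg KD, again without overlap (SD, n = 4, exact two-sided permutation p = 0.0286, adjusted 0.0857). With it as a covariate, 5 genes were called, 3 of them among the 14, and the median was -0.34. C8g and Mbl1 passed there and not in the main fit, and C9 did not pass. Serpinc1 and F12 kept their call without any 1 liver, and F5 lost it in all 8 fits.

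On the control diet 3xTg and WT livers did not differ by the test in any of the 37. Of all genes 1.86% did, 0.798% higher and 1.06% lower. At unadjusted p below 0.05 there were 7 of the 37, and 1577 of all 13281 genes. DESeq2 called 0 of the 37, and 2.9% of all genes. The median was 0.06. F12 was lower in every 3xTg liver, at 336, 324, 320 and 305 CPM in WT and 234, 215, 198 and 209 in 3xTg (-0.59 ± 0.22, adjusted p = 0.235). It passed when only these 2 groups were fitted (adjusted p = 0.0162). Cpb2 was higher in every 3xTg control liver, 426 to 544 CPM against 248 to 402 in WT (0.53 ± 0.18, adjusted p = 0.151), and passed with the mitochondrial share as a covariate (adjusted p = 0.0461). Mbl2 and F9 also had all 3xTg control livers above all WT control livers, at 0.42 ± 0.15 and 0.33 ± 0.13, without passing. Such separation was seen in 3 genes higher and 1 lower in 3xTg, and in 4.36% and 4.31% of all genes.

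**Figure D4:**
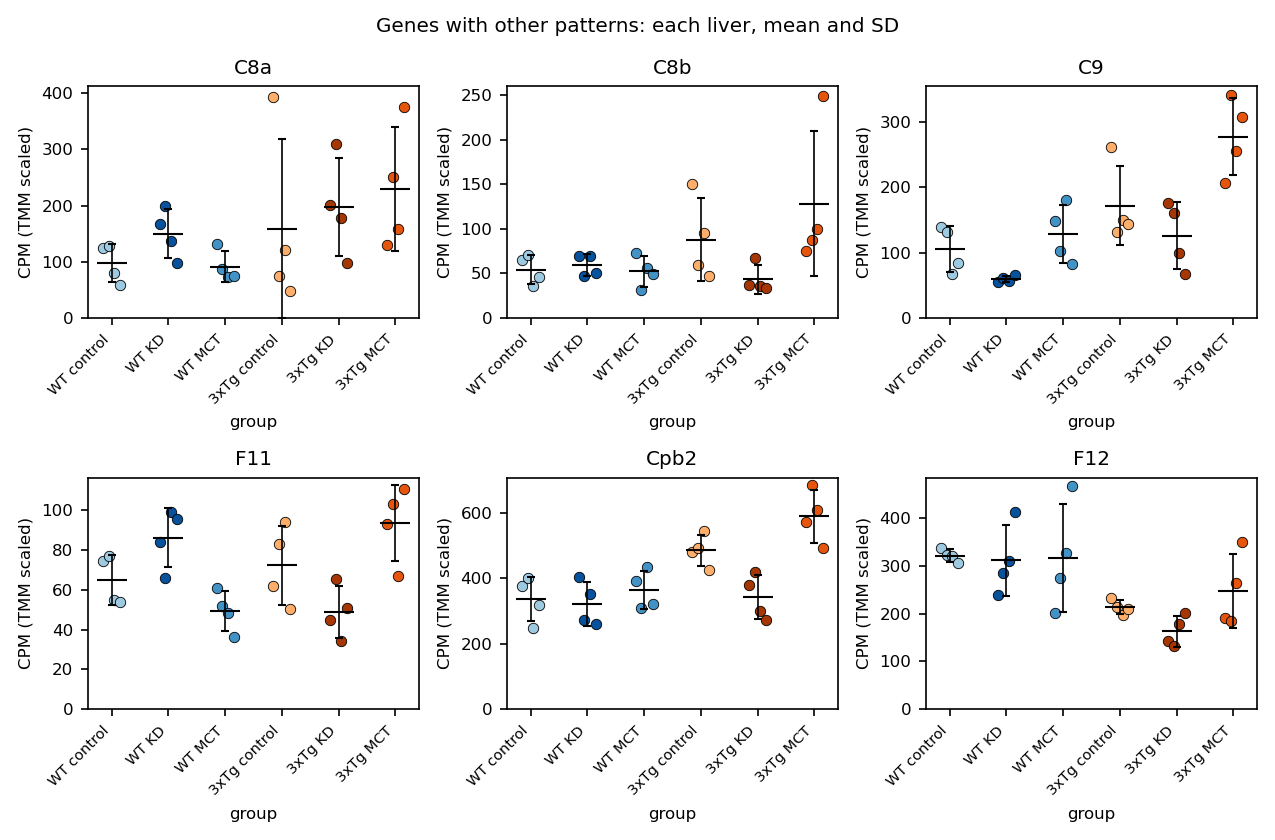
CPM (TMM scaled, from 0) of 6 further genes in every liver of the 6 groups; points are livers, the horizontal mark is the mean and the bar the SD (n = 4). F12 is lower in all 3xTg control livers (198 to 234) than in all WT control livers (305 to 336), and Cpb2 is at 491 to 685 in 3xTg MCT livers, above all WT MCT livers.

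MCT against the control diet called 0 of the 37 in WT and 0 in 3xTg, where 0% of all genes passed in each. DESeq2 called 0 of the 37 in both (0.136% and 0.181% of all genes). Its own filter left 8389 genes in WT and 3497 in 3xTg with an adjusted p, and 1 of the 37 had none in 3xTg. At unadjusted p below 0.05 there were 0 of the 37 in WT and 3 in 3xTg, where 803 and 855 of all 13281 genes passed. The medians were 0.08 and 0.19 (all genes, 0.01 and 0.02), and in 3xTg 33 of 37 genes were above 0; scaled by total count alone the 3xTg median was 0.06, and all genes were at -0.12. In WT no gene of the 37 had groups without overlap (all genes, 1.37% higher and 1.3% lower). In 3xTg, Fgg and Fgb had all MCT livers above all controls, as had 1.84% of all genes, and 0 had them below (1.48%). Fgg read 3149, 3241, 3304 and 2565 CPM in 3xTg controls (0.59 ± 0.22 on MCT, adjusted p = 0.643) and Fgb 4090, 4137, 4475 and 3288 (0.53 ± 0.23, adjusted p = 0.738). The difference of the MCT responses between the lines called 0 genes (all genes, 0%), with F11 furthest at 0.77 ± 0.31. DESeq2 called 0. At unadjusted p below 0.05 there was 1 of the 37, and 287 of all 13281 genes.

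On the MCT diet 2 genes were higher in 3xTg than in WT, where 1.74% of all genes passed, 0.7% as higher and 1.04% as lower. DESeq2 called 4 (2.33% of all genes). F11, for factor XI, read 93.1, 103, 66.8 and 111 CPM in 3xTg and 60.8, 51.6, 48.5 and 36.2 in WT (0.92 ± 0.22, adjusted p = 0.0284). Cpb2 read 571, 685, 607 and 491 CPM in 3xTg and 391, 308, 434 and 322 in WT (0.69 ± 0.18, adjusted p = 0.0416). Both had no overlap, as had C9, C8b, Cfi and Fgg, against 2.65% of all genes that were higher and 2.48% lower in this way. C9 was at 1.11 ± 0.30 (adjusted p = 0.0601), and passed with the replicate number as a block (adjusted p = 0.0423) and with DESeq2 (adjusted p = 0.0123). The count of 2 was 1 without 3xTg MCT replicate 3 or 4 or WT MCT replicate 1, and 0 without 3xTg MCT replicate 1 or 2, WT MCT replicate 2 or 4, or the libraries with pancreas transcripts. F11 was thus above WT in 3xTg on MCT and below WT on KD (-0.82 ± 0.22, adjusted p = 0.0224). WT livers held 83.8, 66.0, 99.1 and 95.6 CPM of it on KD, and 3xTg livers 44.9, 65.1, 34.0 and 50.8.

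With edgeR and TMM, 20 of the 37 genes were called in at least 1 comparison and 17 in none. Single comparisons called up to 8.49% of all genes, and they share livers. The share of all genes called in at least 1 was not counted, so neither number has a background beside it. Those 17 were Masp2, Mbl1, C2, C4b, Cfb, Hc (C5), C8a, C8g, C4bp, Fga, F2, F9, F13b, Klkb1, Pros1, Serpinf2 and Hrg. Under other settings some of them passed: F2, Hc, Hrg, Masp2 and Mbl1 with DESeq2, Pros1 when scaled by total count, and C8g and Klkb1 with the replicate block. Their KD effects in 3xTg ran from -0.46 (F2) to 0.31 (C8a). The C8a estimate has an SE of 0.48, and its 3xTg control livers read 394, 74.3, 120 and 47.5 CPM. The genes for factor XIII B (F13b) and for antiplasmin (Serpinf2) were at -0.21 ± 0.16 and -0.15 ± 0.21.

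Genes that lie side by side on a chromosome did not all show like differences. In the fibrinogen locus of chromosome 3, the 3 chains had correlations of 0.91 (Fgg and Fga) and 0.93 (Fga and Fgb) over the 24 livers after group means were removed. F7 and F10 on chromosome 8 had 0.56 and nearly the same KD effect in 3xTg (-0.84 and -1.01). C8b and C8a on chromosome 4 had 0.78 within groups, yet KD effects in 3xTg of -1.03 and 0.31, a difference that was not tested. F11 and Klkb1 had 0.33. These correlations describe 24 libraries that share depth and scaling within each liver. By the same measure, the genes most like F10 were Fkbp2 (0.87), Sil1 (0.86), Proz (0.84), Gm8893 (0.79) and Nucb1 (0.79); among the 37, Kng1 (0.75) and Hrg (0.74) came highest.

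Other genes of the pathways were followed as well. Of 37 further complement genes, 33 were tested, and KD against control in 3xTg called 4 lower and 1 higher (median -0.15). C1s1, the partner protease of C1r, was at -0.43 ± 0.10 (adjusted p = 0.0191), C1rl at -0.58 ± 0.15 and Cpn1, of the carboxypeptidase that inactivates C3a and C5a, at -0.70 ± 0.19. Itgb2, the leukocyte beta chain of complement receptors, was higher (1.43 ± 0.36, adjusted p = 0.0236). Vtn, for vitronectin, was lower on KD than on MCT in 3xTg (-1.08 ± 0.23). Of 29 further clotting genes, 23 were tested, with a median of 0.08 for KD in 3xTg. Kng2 was lower (-0.81 ± 0.16, adjusted p = 0.00422), as was its paralog Kng1.

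Among 16 other proteins secreted by hepatocytes, all 16 were below 0 for KD in 3xTg, with a median of -0.62, and 5 passed as lower, among them Ambp (-0.74 ± 0.17), Serpina1a (-0.81 ± 0.22), Serpina6 (-1.03 ± 0.30) and Ahsg (-0.71 ± 0.20). In WT the median of these 16 was 0.11 and 0 were called. Of 24 acute phase genes, 1 was higher and 1 lower for KD in 3xTg, Saa4 (1.13 ± 0.27) and Itih3 (-0.85 ± 0.25), with a median of 0.24. Of 19 hepatocyte transcription factors, Nr1i3 (0.72 ± 0.18), Cebpb (from 20.5 ± 9.81 to 40.9 ± 8.61 CPM, adjusted p = 0.0435) and Ppara (0.41 ± 0.12) were higher and Onecut1 lower (-1.26 ± 0.36), with a median of 0.03.

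The 37 genes were also taken as a share of all gene counts, which is itself a scaling by total count. Genes of high level weigh most in it, C3 averaging 10181 CPM over all livers and C2 12.1. The share averaged 3.71% ± 0.45 (SD, n = 4) in 3xTg KD, 4.25% ± 0.38 in 3xTg controls and 4.72% ± 0.27 in 3xTg MCT. In WT the shares were 3.88% ± 0.31 on KD, 4.01% ± 0.42 on the control diet and 4.23% ± 0.35 on MCT. In both lines KD was the lowest and MCT the highest of the 3 means. The WT groups overlapped (3.46% to 4.16% on KD, 3.65% to 4.49% on control, 3.78% to 4.60% on MCT). In 3xTg, controls (3.79% to 4.71%) overlapped both KD (3.20% to 4.28%) and MCT (4.49% to 5.05%), while KD and MCT did not overlap.

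**Figure D5:**
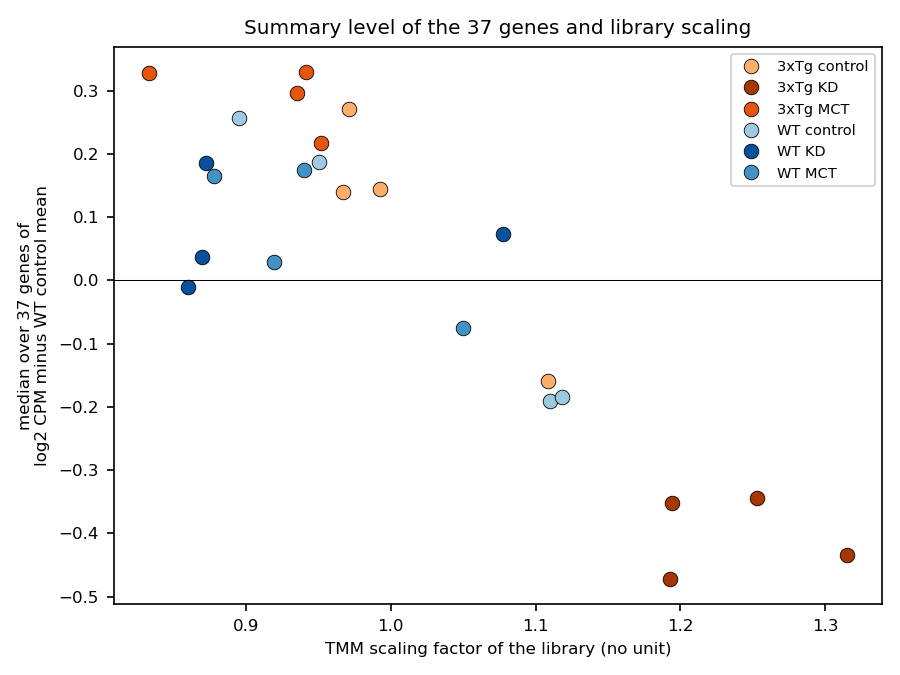
Median over the 37 genes of log2 CPM minus the WT control mean (vertical) against the TMM scaling factor of the library (horizontal), for each of the 24 livers, coloured by group. The 4 3xTg KD livers hold the highest factors (1.19 to 1.32) and the lowest medians (-0.47 to -0.34). For KD against control in 3xTg, the gap between the 37 genes and all genes was -0.41 with TMM and by total count. Such scaling moves all genes of a library alike, so the equal gap is no test of the scaling.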

How the data were processed

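Polyadenylated RNA of 24 livers was sequenced. Extraction used TRIzol followed by RNeasy columns, per the labels' protocols, and libraries were made with the KAPA mRNAseq Hyperprep kit and dual-index UMI adapters. The deposited values are whole-number read counts per gene; the submitters' processing notes name Trimmomatic, STAR and GRCm38. For strand direction and UMI use, the setting is not given in the sources here. Summary entries that name no gene (21.5% to 30.1% per library) were left out.

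Genes were filtered with filterByExpr by group. Tests used edgeR 4.0.16 (R 4.3.3): TMM, 1 quasi-likelihood fit of 24 libraries, 18 residual degrees of freedom, 11 contrasts, and Benjamini-Hochberg adjustment at 0.05. A called gene has an adjusted p below that. Alternatives were total-count scaling, RLE factors, no filter, DESeq2 1.42.0, the legacy fit, a replicate block, mitochondrial share, the compared groups alone, and left-out livers. P values test a difference of group means against the spread between these livers. Intervals are for that difference and not for the values of single livers. Gene lengths and coordinates were from GENCODE M21 and the deposited table, promoters from RefSeq (29 of 37 matched). The C1ra promoter is not printed, because GENCODE places most of it in an exon. On simulated counts for KD against control in 3xTg (13281 genes), log2 changes of 2, 1, -1 and -2 were recovered in 92%, 52%, 40% and 80% of 50 genes each.

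The 37 genes and all lists were chosen with earlier results of these data known. Details and results that involve withheld items are not reported here. All 37 were named, with every liver's value for those called; up to 4 called genes per other list and contrast were named by smallest adjusted p. Same-numbered WT and 3xTg MCT livers deviated together (r from 0.245 to 0.317), each pair over 0.1, though 1 of 4 (replicate 4) matched its own number best. Replicate 4 livers also matched each other best in further pairs of groups. Their r was 0.471 for WT KD with 3xTg KD, 0.313 for 3xTg KD with MCT and 0.305 for WT KD with MCT. For 3xTg control it was 0.230 with 3xTg MCT, 0.182 with WT control and 0.175 with 3xTg KD. They did not for WT control with WT KD (-0.066) or WT MCT (-0.029). The labels give no reason for a pairing.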

Additional observations from a re-analysis of the deposited data

Results flagged for a closer look

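In 222 groups of 4 livers (37 genes in 6 groups), 11 had a liver far from the other 3 by Dixon's test at 95%; chance gives about 1 in 20 groups. In 3xTg controls, replicate 4 was low for C1ra (115 CPM, the others 149 to 155) and for F5 (699 CPM, the others 1098 to 1152), replicate 2 was high for Masp2 (178 CPM, the others 163 to 164), and replicate 1 was high for C9 (262 CPM, the others 131 to 150) and C4bp (623 CPM, the others 518 to 534). In WT controls, replicate 2 was low for Mbl1 (156 CPM, the others 189 to 194) and replicate 4 high for Mbl2 (580 CPM, the others 468 to 479). On KD, replicate 4 of 3xTg was high for C2 (11.3 CPM, the others 9.29 to 9.51), replicate 2 of 3xTg high for C8b (66.9 CPM, the others 33.1 to 36.3), and replicate 4 of WT high for C8g (348 CPM, the others 212 to 225). On MCT, replicate 4 of 3xTg was high for C8b (249 CPM, the others 75.2 to 99.9). That liver carries pancreas transcripts, as does WT KD replicate 4.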

How the results depend on the processing

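No call on a single gene changed direction under the alternatives run. Of the values without 1 liver, 215 of 344 stayed past the threshold and 129 did not; under the other alternatives these were 259 and 160 of 419. KD against control in 3xTg (9 called) gave 3 by total count, 5 with the mitochondrial share, 0 without KD replicates 2 and 3, and 2 to 9 without 1 liver. KD against MCT in 3xTg (18) gave 7, 6 and 4 under the same 3 settings, 8 with the compared groups alone, 4 without libraries holding pancreas transcripts, and 8 to 19 without 1 liver. 3xTg against WT on KD (14) gave 3, 5 and 0 under those 3, 8 with no filter on low counts, and 2 to 13 without 1 liver. These counts can include genes that passed only in the setting named. By total count, 2 of the 9, 6 of the 18 and 1 of the 14 stayed called. With the mitochondrial share, 5 of the 9, 5 of the 18 and 3 of the 14 did. 3xTg against WT on MCT (2) gave 4 with DESeq2, 1 with the legacy fit, 0 with the compared groups alone or without pancreas libraries, and 0 to 2 without 1 liver. The remaining contrasts, all at 0, gave 1 for KD against MCT in WT and 4 for the difference of KD responses with DESeq2, and 1 for 3xTg against WT on the control diet with the mitochondrial share and 1 with the compared groups alone. The cause of these changes was not tested. Where livers were left out, the smaller number and the loss of those particular livers cannot be told apart. With the replicate block the counts were 9, 21, 15 and 3 in the first 4 contrasts and 0 in the others. Where 1 liver remains in a group, it is assumed to vary like the others. Depth bears most on C2, the lowest of the 37.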
